A study of Mus musculus with 4 samples.

Results

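Cxcl1, Cxcl2, Cxcl3 and Cxcl5 are neutrophil-attracting chemokines, and Cxcr2 is their shared receptor. These 5 genes were found by symbol among the 55450 genes of a single-cell RNA sequencing experiment on mouse 4T1 breast tumours, and each symbol matched 1 gene. Their transcripts were counted as unique molecular identifiers (UMIs), 1 for each captured molecule, in the 32133 of 33064 cell barcodes that held at least 300 genes and at most 15% mitochondrial UMIs. Neutrophils carried most of the receptor and led in Cxcl2 and Cxcl3 relative to all UMIs of their class. Fibroblasts held most of the UMIs of Cxcl1 and Cxcl5. For Cxcl1 this turned on the number of UMIs per cell. With every cell reduced to the same number of UMIs, neutrophils, the more numerous class, held the most Cxcl1 in sum. More of the fibroblasts still held the message, at 69.2% against 33.6% of neutrophils.

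Chemokines of the CXC family with the amino acids Glu-Leu-Arg before their cysteines recruit neutrophils from blood into inflamed tissue and into tumours. They bind Cxcr2, a receptor coupled to an inhibitory G protein, which also helps to release neutrophils from bone marrow. The ligand genes are induced within a short time by interleukin 1, tumour necrosis factor and interleukin 17, through the transcription factor NF-kB and its cofactor Nfkbiz, and their messages are short-lived because RNA-binding proteins such as Zfp36 and Zc3h12a have them degraded. The 4T1 line, a mammary carcinoma of BALB/c mice, is known for the large number of neutrophils that its tumours draw.

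The samples were tumours of female BALB/c mice of 6 to 8 weeks, grown for 13 days from 1000000 4T1 cells placed in the right flank. After an intravenous injection on day 7, the protocol gives for all mice near-infrared (NIR) light of 980 nm at 1.0 W per cm2, given for 5 min on each of the days 8, 9 and 10. The labels give 2 samples injected with PBS and 1 with TIOs, which are macrophages treated with liquid nitrogen and loaded with nanoparticles that carry a photosensitizer and the GPX4 inhibitor RSL3. For 1 further sample the title and the protocol name different injections, so it was put in no group. The barcodes carry 4 suffixes, called libraries 1 to 4 here. No source used here ties a suffix to a sample, so PBS and TIOs could not be compared, the 4 libraries are of unknown treatment, and no test between groups was possible. Values are therefore descriptions of 1 pooled set of cells, with each library given beside the pool and no p-value. The intervals given are exact 95% intervals for counting error only, and they do not cover differences between mice.

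Libraries 1 to 4 kept 7847, 8614, 6783 and 8889 cells, with median depths of 11698, 2641.5, 2695 and 7182 UMIs per cell, and 101 barcode sequences occurred in more than 1 library. Cells were assigned to 15 classes by panels of marker genes that held no chemokine of the set and not Cxcr2, 13 classes reached 50 cells, and 4196 cells (13.1%) stayed ungated. A class name below stands for cells that resemble that type by these markers. Every marker peaked in its own class except for the monocyte panel, where 4 of 6 did. The gate used these same markers, so such peaks were largely built in and are no independent check. Library 1 stood apart, with 4006 of the 4298 tumour cells but only 148 of the 4003 fibroblasts, 90 of the 3955 monocytes and 736 of the 8699 neutrophils. Cells had been sorted for CD45, yet fibroblasts and tumour cells were held in the matrix, and Ptprc, which encodes CD45, was at 18.2 CPM (counts of the gene among 1000000 UMIs of these cells) in fibroblasts against 714 CPM in neutrophils, with a UMI in 30.0% and 67.1% of the cells. Droplets also capture free RNA from other cells. T cells, which should lack the chemokines, served as the measure of it, and the neutrophil messages S100a8 and S100a9 reached 1.55% and 1.54% of their neutrophil level there.

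The 4 ligand genes lie within 146.6 kb of chromosome 5 in the mouse genome build GRCm38, all on the forward strand. From left to right they are Cxcl5 (ENSMUSG00000029371, chr5:90759360-90761624), Cxcl3 (ENSMUSG00000029379, chr5:90786103-90789600), Cxcl1 (ENSMUSG00000029380, chr5:90891241-90893115) and Cxcl2 (ENSMUSG00000058427, chr5:90903871-90905938), and the related platelet chemokines Ppbp and Pf4 lie between Cxcl5 and Cxcl3. Cxcr2 is on chromosome 1 (ENSMUSG00000026180, chr1:74153989-74161246). Since NF-kB is the known inducer of these chemokines, the 300 bases around each start site in RefSeq's table for GRCm38.p6 (250 before, 50 after) were searched on both strands for its binding letters GGGAANNNCC. Of the 5 genes, 4 had an entry, and none was used here for Cxcl5. The stretches from 110 to 31 bases before the start are shown because all matches fell there, with matches to the motif on either strand in capitals and the rest in lower case.
Cxcl1: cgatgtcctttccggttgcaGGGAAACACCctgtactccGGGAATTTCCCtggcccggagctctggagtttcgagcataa
Cxcl2: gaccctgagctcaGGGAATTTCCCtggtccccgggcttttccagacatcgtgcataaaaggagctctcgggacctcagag
Cxcl3: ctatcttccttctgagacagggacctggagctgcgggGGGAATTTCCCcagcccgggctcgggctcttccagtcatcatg
Cxcr2: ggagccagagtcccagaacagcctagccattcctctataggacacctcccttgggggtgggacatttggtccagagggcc

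These stretches are chr5:90891135-90891214, chr5:90903789-90903868, chr5:90785991-90786070 and chr1:74153884-74153963, all read on the forward strand. Cxcl1, Cxcl2 and Cxcl3 held the same 10 letters, GGGAATTTCC, starting 71, 97 and 73 bases before the start, each overlapped 1 base on by a match on the opposite strand. Cxcl1 held a further match, GGGAAACACC, 90 bases before the start. Cxcr2 held no match in its window. The motif occurred in 5.78% of all 32851 promoter windows, and the exact run of 10 letters occurred in 29 of them (0.0883%), read on either strand. A match describes the letters and not a site in use, and the 3 ligands that share it did not peak in the same cells.

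Cxcl2 was the tenth most abundant of all transcripts, with rank 10, 1717956 UMIs and a pooled level of 4843 CPM. Cxcl1 had 438185 UMIs, Cxcl5 204817, Cxcl3 98074 and Cxcr2 12366. Whole libraries differed, and they held different mixes of cells. Cxcl3 was at 18.8, 599, 407 and 201 CPM in libraries 1 to 4, and Cxcl5 was at 30.6, 613, 1034 and 835 CPM. Library 1 was the lowest of the 4 for each of the 5 genes. The genes differed in how far their UMIs were gathered in few cells. The top 1% of cells (321 cells) by their UMIs of a gene held 40.9% of the UMIs of Cxcl5, 22.4% of those of Cxcl3, 21.1% of those of Cxcl1 and 8.51% of those of Cxcl2. Levels are compared below between cells for 1 gene at a time, not between genes.

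**Figure D1:**
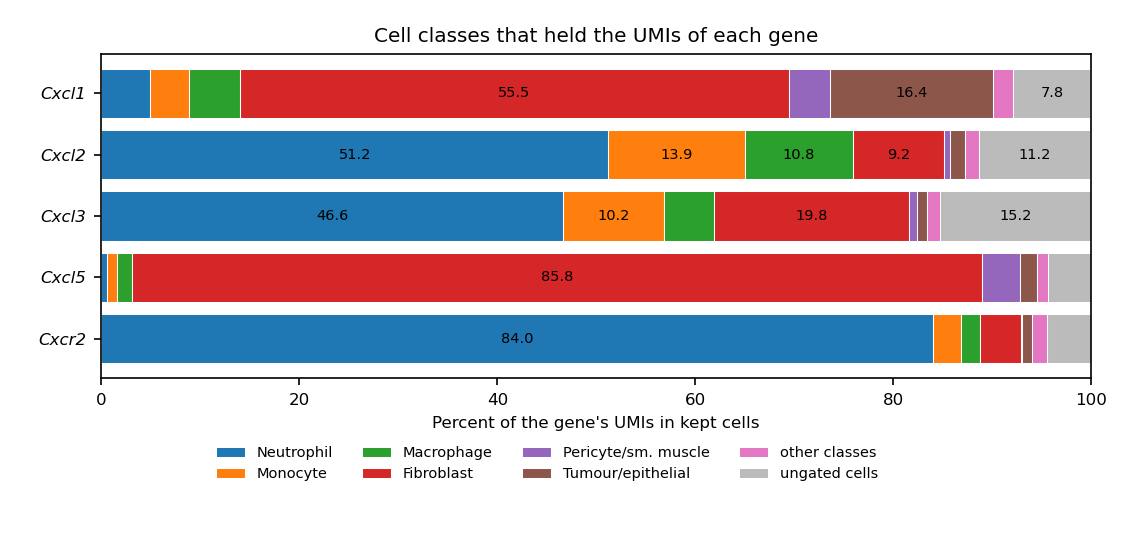
Percent of each gene's UMIs in kept cells (horizontal axis) that fell in each cell class, with minor classes joined and ungated cells in grey. Neutrophils held 51.2% of Cxcl2, 46.6% of Cxcl3 and 84.0% of Cxcr2, while fibroblasts held 55.5% of Cxcl1 and 85.8% of Cxcl5.

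Cxcl2, the chemokine also called MIP-2, was a neutrophil message first. In neutrophils it stood at 21949.7, 51884, 55938 and 46627 CPM in libraries 1 to 4, and at 50118 CPM (50013 to 50222) over all 8699 of them. Monocytes followed with 5956, 7024, 12492 and 6989.5 CPM and macrophages with 5115 to 7095 CPM. The ranges over libraries of neutrophils and monocytes did not overlap, and those of monocytes and macrophages did. Per cell the gaps were smaller, at 101.1 Cxcl2 UMIs on average in a neutrophil, 60.3 in a monocyte, 43.6 in a macrophage and 39.6 in a fibroblast. In library 1 a macrophage held more than a neutrophil, at 50.9 against 39.3. The median neutrophil spent 4.14% of its UMIs on this gene, and the highest reached 23.2%. By library the medians were 1.27%, 4.23%, 4.57% and 4.49%, so that library 1 lay lowest. With every cell thinned to 1000 UMIs, a step that sets all cells to the same depth and left out 1890 shallower cells, 98.6% of neutrophils (98.3 to 98.8) held a Cxcl2 UMI against 30.5% of T cells.

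The other cells with Cxcl2 were less alike. Fibroblasts stood at 907, 2086, 1271 and 830 CPM in libraries 1 to 4 and, with a median depth of 27010 UMIs per cell, held 9.23% of the Cxcl2 UMIs. Tumour cells were the lowest of all 13 classes in the pool, at 256 CPM in library 1 and 512 CPM in library 2. T cells reached 628 to 2028 CPM. The ranges of fibroblasts and T cells overlapped. Fibroblasts lay above the T cells of the same library in libraries 1 and 2 and below them in libraries 3 and 4. T cells were at 2.44% of the neutrophil level of Cxcl2 in the pool, with 2.86%, 1.35%, 3.63% and 2.81% by library. S100a8 was at 1.55% in the pool, with 1.04%, 0.72%, 2.70% and 0.62% by library.

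**Figure D2:**
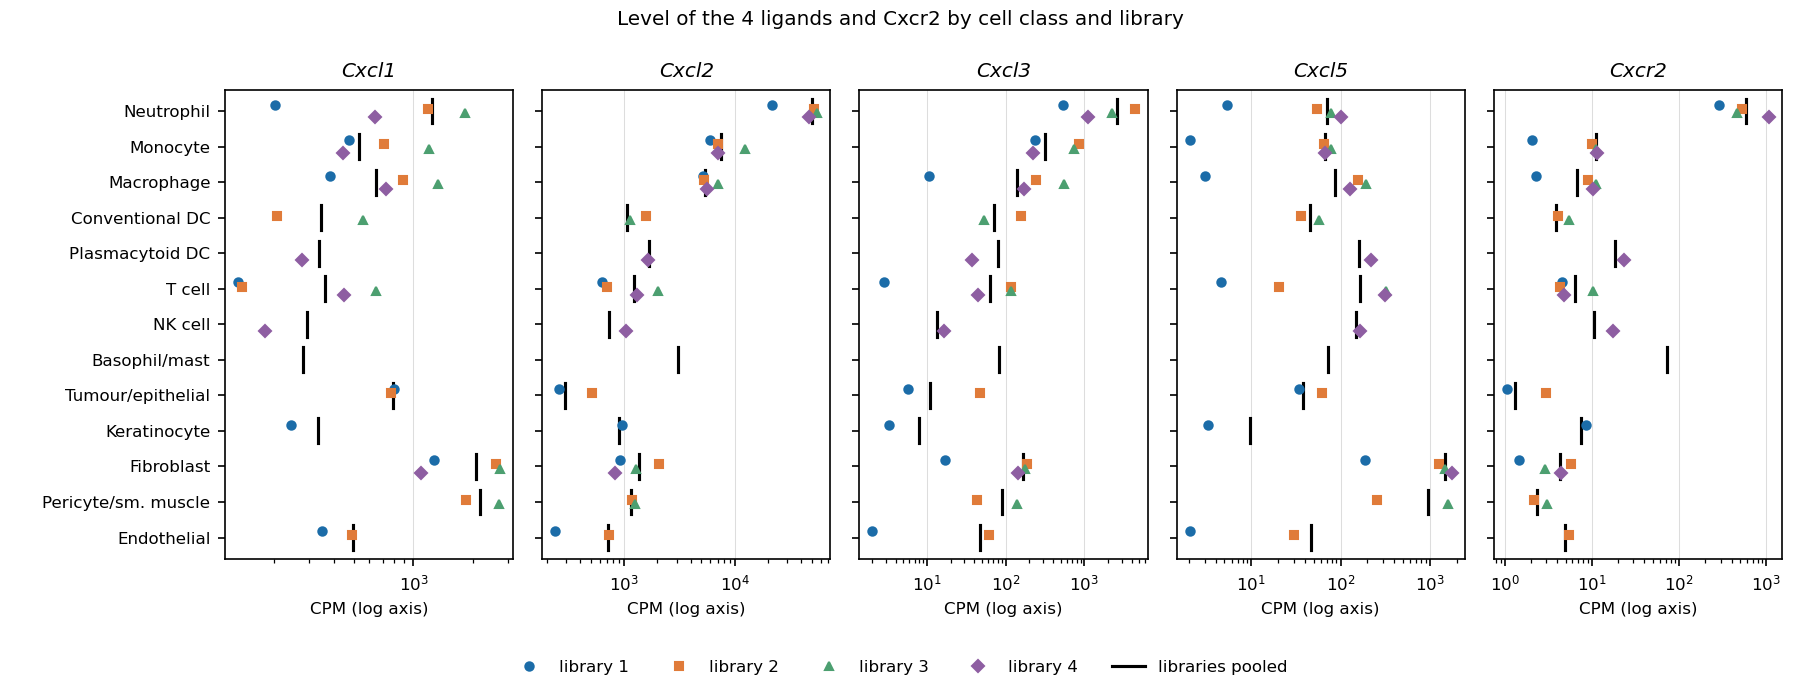
Level of each gene in CPM (log axis) by cell class, with 1 point for each library that held at least 50 cells of the class and a black line for the libraries pooled. Cxcr2 stood at 592 CPM in neutrophils and at 1.31 CPM in tumour cells, and Cxcl1 was the most evenly spread, from 277 CPM to 2165 CPM in the pool.

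Cxcl3, the close relative of Cxcl1 and Cxcl2, was also highest in neutrophils by CPM, but in fewer of them. It was at 531, 4366, 2235 and 1103 CPM in libraries 1 to 4 and at 2606 CPM (2582 to 2630) in the pool. Monocytes stood at 234, 850, 740 and 222 CPM. Neutrophils were the highest class by CPM within each library, although the ranges over libraries of both classes overlapped. Counted per cell the order differed, at median depths of 1814 UMIs in neutrophils and 27010 in fibroblasts. A neutrophil held 5.26 Cxcl3 UMIs on average and a fibroblast 4.84. Neutrophils held the most per cell in library 2 (8.60). Fibroblasts did in libraries 3 and 4, at 6.00 and 5.36 against 4.94 and 2.06. In library 1 monocytes did, at 1.27 against 0.95. At 1000 UMIs, 43.4% of neutrophils (42.3 to 44.5) held a Cxcl3 UMI, with 14.2%, 56.8%, 43.9% and 31.2% by library, against 2.12% of T cells. The 10% of neutrophils with the most Cxcl3 held 61.5% of their Cxcl3 UMIs, and 95.3% in library 1. Library 2 carried much of the pooled level, which was 1693 CPM without it.

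Outside neutrophils, Cxcl3 was carried by the same myeloid cells as Cxcl2 and by fibroblasts. Macrophages were at 10.6, 247, 547 and 172 CPM, and fibroblasts at 16.8, 188, 176 and 143 CPM. Both classes were lowest in library 1. T cells, the measure of free RNA, were at 2.89, 118, 118 and 44.2 CPM, below both classes in each library. Fibroblasts, with their median depth of 27010 UMIs, held 19.8% of all Cxcl3 UMIs. Tumour cells were at 5.83 CPM in library 1 and 46.8 CPM in library 2, below the fibroblasts of the same library in each.

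Cxcl1, known in mice as KC, was led by the stroma. Fibroblasts stood at 1270.2, 2584, 2727 and 1094 CPM in libraries 1 to 4, the highest class in each library by CPM. Pericytes or smooth muscle cells were at 1827 CPM in library 2 and 2678 CPM in library 3, the libraries with at least 50 such cells, and led the pool at 2165 CPM (2133 to 2196) against 2067 CPM (2059 to 2076), but fibroblasts led without library 3 or without library 4. The intervals of both classes overlapped in library 3, so their order cannot be told there. A fibroblast held 60.7 Cxcl1 UMIs on average, and at 1000 UMIs 69.2% of fibroblasts (67.7 to 70.6) had the message, with 49.7%, 76.5%, 77.6% and 53.6% by library. Their share of all Cxcl1 UMIs moved with depth, from 55.5% over all UMIs to 24.5% with each cell thinned to 1000 UMIs. In that setting neutrophils held the most in sum, with 8136 cells kept against 3843 fibroblasts.

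Tumour cells expressed Cxcl1 too. They were at 795 CPM in library 1 and 773 CPM in library 2, and held 16.4% of all Cxcl1 UMIs. Neutrophils were at 201, 1178, 1821 and 641 CPM, the widest range over libraries of the classes with over 1000 cells when taken as the highest over the lowest, but with 2.505 UMIs per cell they held only 4.97% of the Cxcl1 UMIs. Macrophages were at 382, 881, 1335 and 731 CPM. From the pericytes down to conventional dendritic cells, each class overlapped the next in its range over libraries. T cells were at 132, 137, 647 and 449 CPM, which was 10.4%, 5.32%, 23.7% and 41.1% of the fibroblast level of the same library. The collagen messages Col1a1 and Col3a1 reached 3.21% and 3.74% in the pool. By library, Col3a1 reached 1.08%, 5.08%, 5.78% and 7.06%. Cxcl1 was close to it in library 2 and above it in libraries 1, 3 and 4. In library 1, however, tumour cells held 63086 Cxcl1 UMIs and fibroblasts 2641, so the fibroblast level is a poor gauge of free Cxcl1 there. In libraries 3 and 4, 19.2% and 13.7% of T cells held at least 2 Cxcl1 UMIs, and mixed droplets were not tested. At 1000 UMIs, 37.2% of tumour cells, 33.6% of neutrophils and 13.4% of T cells held a Cxcl1 UMI.

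Cxcl5, called LIX in mice, was the most fibroblast-bound of the ligands. It was at 189, 1283, 1463 and 1762 CPM in the fibroblasts of libraries 1 to 4 and at 1495 CPM (1488 to 1502) in the pool. The fibroblasts of library 1 were the lowest by far, with 9.93% of cells positive at 1000 UMIs against 37.2%, 47.2% and 58.4% in libraries 2 to 4. Pericytes or smooth muscle cells were at 256 CPM in library 2 and at 1603 CPM in library 3, where they exceeded the fibroblasts. No other class of at least 50 cells exceeded 167 CPM in the pool, but the ungated cells were at 296 CPM. In the clusters described below, cluster 21 (427 cells), led by Myod1 and Des, matched no class and was at 277 CPM. T cells were at 4.53, 20.6, 322 and 313 CPM, up to 22.0% of the fibroblast level in library 3, and macrophages, neutrophils and monocytes lay lower in the pool, at 86.1, 69.6 and 67.4 CPM. At 1000 UMIs, 4.51% of T cells (3.36 to 5.92) and 6.28% of neutrophils (5.76 to 6.83) held a Cxcl5 UMI, so neutrophils could not be told from background. Macrophages of library 2 stood above it, at 158 CPM (149 to 168) and 11.7% of cells against 20.6 CPM (12.4 to 32.1) and 3.66% of T cells, whereas in libraries 3 and 4 their CPM was below that of T cells and their share of cells above it, so no order is given there. The T cell CPM in libraries 3 and 4 rested on few cells. T cells held 721 and 389 Cxcl5 UMIs there, and only 5.08% and 8.57% of them held at least 2. Mixed droplets among these T cells were not tested. Tumour cells were at 34.3 CPM in library 1 and 62.1 CPM in library 2.

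Cxcr2 was largely a neutrophil message. Neutrophils were at 284, 524, 460.3 and 1072 CPM in libraries 1 to 4 and at 592 CPM (581 to 604) in the pool, and they held 84.0% of all Cxcr2 UMIs. Among classes with at least 50 cells in a library, the next class was lower by 33.2, 52.1, 41.0 and 46.1 times in libraries 1 to 4. Library 4, which did not lead for Cxcl1, Cxcl2 or Cxcl3 in neutrophils, had the highest level of the receptor. At 1000 UMIs, 40.8% of neutrophils (39.7 to 41.9) held a Cxcr2 UMI, with 22.8%, 37.4%, 33.8% and 63.2% by library, against 0.83% of T cells.

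Other classes carried little of the receptor. Basophils or mast cells, which number only 64, came next with 34 UMIs and 72.5 CPM (50.2 to 101). The part of neutrophil RNA in that value was not tested. Every remaining class lay between 1.31 CPM in tumour cells and 18.5 CPM in plasmacytoid dendritic cells. Fibroblasts, which held most of the Cxcl1 and Cxcl5 UMIs before thinning, were at 4.29 CPM, and macrophages and T cells at 6.78 and 6.44 CPM.

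Within the neutrophils, the ligands and the receptor were not spread alike. Clustering all cells without the 5 genes gave 29 clusters, 5 of which were neutrophil-like. Cluster 20, led by Ccl3, Stfa2 and Il1a, held 2327 cells, of which 739 stayed ungated by the cell-wise gate. It had the highest Cxcl3 in each of libraries 2 to 4, at 7328, 4792 and 2915 CPM, and the lowest Cxcr2, at 131, 275 and 257 CPM. Cluster 19, led by G0s2, S100a9 and S100a8, held 2669 cells and was at 2851, 2281 and 1100 CPM of Cxcl3 with 790.3, 563 and 1121 CPM of Cxcr2. The order of clusters 19 and 20 was thus opposite for the chemokine and its receptor in all 3 libraries, but this did not hold for every cluster.

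The other clusters fell elsewhere. Cluster 3, led by the inflammatory genes Tnf, Ccrl2 and Ccl3, had the highest Cxcl1 in library 3 at 2349.6 CPM but the lowest Cxcl3 of the clusters in libraries 2 to 4, at 1315, 1229 and 699 CPM. The Cxcr2 of cluster 3 was at 357, 437 and 787 CPM, so it lay below clusters 4 and 19 for both Cxcl3 and Cxcr2. Cluster 4, led by the interferon-induced genes Rsad2 and Ifit1, had 633, 612 and 1229 CPM of Cxcr2, the highest of the 4 clusters in libraries 3 and 4. Cluster 2, led by the granule genes Ngp and Camp and by Retnlg, came almost whole from library 1 (799 of 835 cells), and its Cxcl2 of 19766 CPM, Cxcl1 of 238.5 CPM and Cxcl3 of 471 CPM were the lowest in the pool. Its Cxcr2 was at 258 CPM in the pool, above only that of cluster 20. Because cluster 2 is nearly the neutrophils of library 1, the state and the library cannot be told apart.

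**Figure D3:**
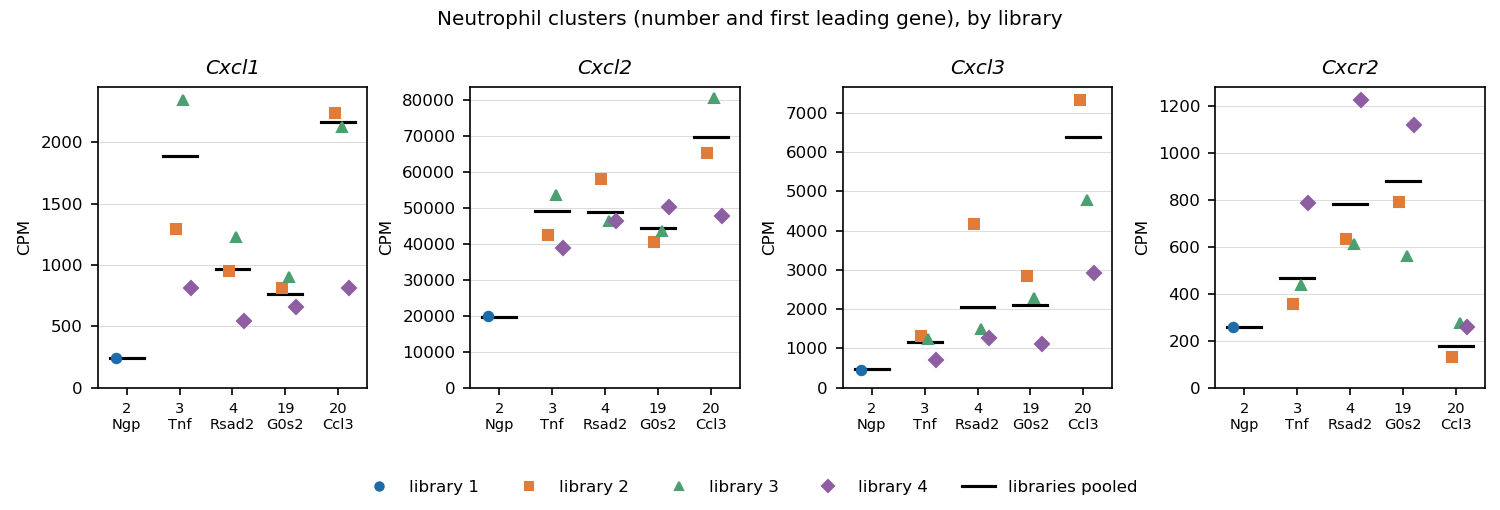
Level in CPM (linear axes from 0) of Cxcl1, Cxcl2, Cxcl3 and Cxcr2 in the 5 neutrophil-like clusters, numbered and with their first leading gene, with 1 point per library that held at least 50 cells and a black line for the pool. Cluster 20 stood highest for Cxcl3 (6394 CPM pooled) and lowest for Cxcr2 (179 CPM pooled).

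Neutrophils were also split cell by cell, by whether they held a Cxcr2 UMI. Of neutrophils thinned to 1000 UMIs, 3318 held a Cxcr2 UMI and 4818 did not. Cxcl3 was at 394, 3054, 1513 and 982 CPM in the former and at 540, 4818, 2546 and 1235 CPM in the latter, in libraries 1 to 4, so it was lower beside Cxcr2 in every library. Cxcl2 was also lower in cells with Cxcr2 in all 4, with pooled levels of 44955 and 51631 CPM. Cxcl1 was lower in libraries 2 to 4 and higher in library 1. Cxcl5 went the other way in the pool, at 76.3 CPM with Cxcr2 and 57.9 CPM without. It was higher with Cxcr2 in libraries 1, 3 and 4 and lower in library 2, but its level in neutrophils could not be told from background. A cell's UMIs add to a fixed total after thinning, and the part of that in the difference was not tested. Receptor and ligand were not exclusive, since 40.1% of neutrophils held UMIs of both Cxcr2 and Cxcl2.

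Retnlg marks a subset of circulating and early tumour neutrophils, and was held as a substate marker. The 2990 neutrophils with a Retnlg UMI were compared with the 5709 without. A gene was called where the ratio was at least 2-fold in the pool, 10 CPM was reached on at least 1 side, and every library with 50 cells on both sides had the same direction. Of 6101 genes, 3 were called higher (0.0492%) and 1 lower (0.0164%). None of the 5 genes was called. The log2 ratio of Cxcr2 was 0.05, 0.02, 0.09 and -0.11 in libraries 1 to 4. That of Cxcl2 was -0.93, -0.07, 0.04 and 0.02, and that of Cxcl1 was -1.08, -0.59, -0.27 and -0.14. Cxcl1 was thus lower with Retnlg in all 4 libraries, but by under 2-fold in the pool (-0.39).

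A further subset, the 2005 Retnlg-negative neutrophils with a UMI of Cd274, which encodes the checkpoint ligand PD-L1, stood at 778, 5952, 2304 and 1109 CPM of Cxcl3. Their Cxcr2 was at 243, 384, 392 and 1010 CPM. Against all neutrophils of the same library, given above, Cxcl3 was higher and Cxcr2 lower in all 4 libraries, by little for Cxcl3 in libraries 3 and 4. That whole includes the subset, and Retnlg-negative neutrophils without Cd274 were not set apart. The subset was taken from counts that were not thinned, and the part of depth in it was not tested.

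Against the 10167 cells of the other immune classes, neutrophils were called higher for 3 of the 5 genes, where 10.3% of 8253 genes were called higher and 45.6% lower. Cxcr2 had log2 ratios of 6.31, 5.71, 5.52 and 6.39 in libraries 1 to 4, Cxcl2 of 2.35, 3.43, 3.26 and 2.95, and Cxcl3 of 4.86, 3.68, 2.61 and 2.54. All libraries lay far above 0 for these genes. Cxcl1 differed in direction, with log2 ratios of -0.73, 0.69, 1.00 and 0.36. Its pooled value of 1.18 lay above that of every library, since the classes were mixed unevenly over the libraries, and it was not called, but it was called higher without library 1 (1.12). Cxcl5 had ratios of 0.61, -1.08, -1.002 and 0.07 and was not called.

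**Figure D4:**
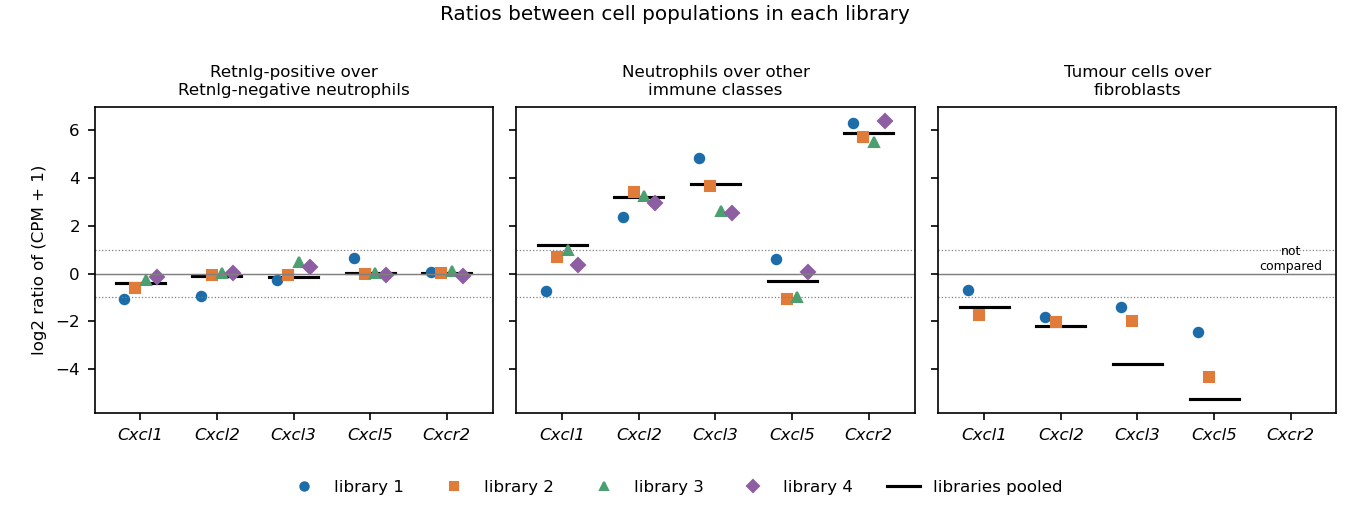
Log2 ratio of CPM + 1 for the 5 genes in 3 comparisons of cell populations, with 1 point per library that held at least 50 cells on both sides, a black line for the pool, and dotted lines at 2-fold. Cxcl2, Cxcl3 and Cxcr2 lay above 2-fold for neutrophils over other immune classes in all 4 libraries, and all ligands lay below 0 for tumour cells over fibroblasts in libraries 1 and 2.

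Tumour cells and fibroblasts could be compared within libraries 1 and 2 only, with 4006 against 148 cells and 291 against 1611 cells. All 4 ligands were called lower in tumour cells, where 18.1% of 9149 genes were called lower and 10.3% higher. The log2 ratios in libraries 1 and 2 were -0.68 and -1.74 for Cxcl1, -1.82 and -2.02 for Cxcl2, -1.38 and -1.98 for Cxcl3, and -2.43 and -4.35 for Cxcl5. Cxcl1 was the closest to equal and Cxcl5 the farthest from it in both libraries, and Cxcl1 was under 2-fold within library 1. Tumour cells lay below the T cells of the same library for Cxcl2 in both libraries and for Cxcl3 in library 2. They lay above T cells for Cxcl1 and Cxcl5 in both, and for Cxcl3 in library 1. The pooled values of Cxcl2, Cxcl3 and Cxcl5 (-2.22, -3.78 and -5.27) lay outside those of both libraries, because the tumour cells were nearly all from library 1 and the fibroblasts nearly all from libraries 2 to 4. Cxcr2 was under 10 CPM on both sides and was not compared.

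Among tumour cells, Cxcl1 differed between clusters of library 1. Cluster 8, led by the epithelial genes Epcam and Cldn4, was at 975.5 CPM, cluster 5, led by Serpine2 and Padi4, at 561 CPM, and cluster 6, led by the proliferation genes Hist1h2ap and Cenpf, at 626 CPM. A further cluster of 128 cells in the tumour class, all from library 1, was at 488 CPM, but it was led by the macrophage genes C1qa, C1qc and C1qb, so it is given no name, and mixed droplets in it were not tested. Cells with a UMI of Mki67 or Top2a, which mark dividing cells, stood at 734 CPM against 897 CPM without them in library 1, and at 871 against 603 CPM in library 2. The directions were opposite, so no relation of Cxcl1 to division held over libraries.

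Macrophages with Arg1, which encodes arginase and is linked to a repair-like state, carried more ligand than those without. In the 2264 Arg1-positive and the 2002 Arg1-negative macrophages, Cxcl3 was at 16.5 and 6.8 CPM in library 1, 320.1 and 120.0 CPM in library 2, 671 and 219 CPM in library 3, and 199.7 and 97.97 CPM in library 4. Cxcl1 was at 445 and 341, 942 and 774, 1499.7 and 901, and 812 and 514 CPM. Both were higher with Arg1 in all 4 libraries. Cxcl2 was higher in all 4 as well, but by less, with 5773 and 4898 CPM in the pool. The summed neutrophil markers were at 1078 CPM in Arg1-positive and 1012 CPM in Arg1-negative macrophages in the pool. They were higher with Arg1 in library 1 (700 and 608 CPM) and library 3 (2077 and 1680 CPM). In library 2 (1276 and 1692 CPM) and library 4 (1056 and 1456 CPM) they were lower with Arg1.

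Cxcl5 was higher in macrophages with the scavenger receptor Cd163, at 203 and 115, 336 and 118, and 181.5 and 94.1 CPM with and without it in libraries 2, 3 and 4. In T cells of the same libraries it was at 20.6, 322 and 313 CPM, above the Cd163-positive macrophages in library 4 and close to them in library 3. The summed fibroblast markers were also higher with Cd163, at 1790 and 1627, 814 and 657, and 864 and 805 CPM. The part of free RNA in the Cxcl5 values of macrophages, and of mixed droplets in those of T cells, was not tested. The clusters did not follow Cd163, since cluster 16, led by Ccl8 and Cd163, was at 91.5, 148 and 129 CPM of Cxcl5 in libraries 2 to 4 and cluster 17, led by Pf4, Ppbp and Arg1, at 288, 290.0 and 174 CPM. Cluster 17 also had more Cxcl3, at 821, 897 and 335 CPM in libraries 2 to 4, whereas cluster 16 was at 125.5, 145 and 59.4 CPM. Cluster 17 was thus the higher for both chemokines in all 3 libraries. Its Cxcl5 in libraries 3 and 4 lay below the T cell level given above, which rested on few T cells.

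Fibroblasts differed between libraries and between clusters. Cluster 10, led by Tagln, Crabp1 and the myofibroblast gene Lrrc15, came mainly from library 1 (177 of 207 cells) and was at 22.0 CPM of Cxcl5 there. Cluster 22, led by Timp1, Thbs4 and Ptx3, was at 1216, 1436 and 1720.2 CPM of Cxcl5 in libraries 2 to 4, and cluster 23, led by Saa3, Pi16 and Apod, at 1311, 1071 and 1969 CPM. Clusters 22 and 23 held only 22 and 18 cells of library 1, so for its fibroblasts the state and the library cannot be told apart. Clusters 22 and 23 changed places between libraries for Cxcl5. For Cxcl1 they were at 2545 and 2599.8 CPM in library 2, 2614 and 2827 CPM in library 3, and 1106 and 826 CPM in library 4. Fibroblasts split by Lrrc15 and by Dpt, a marker of universal fibroblasts, did not keep a common order for Cxcl5 over libraries either.

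The 714 fibroblasts with neither marker had the highest Cxcl2, at 2128 CPM in the pool and 5643 CPM in library 2, and the highest Cxcl3, at 299.6 CPM in the pool and 534 CPM in library 2. Their summed neutrophil markers were at 806 CPM in the pool, against 738 and 744 CPM in the fibroblasts with Lrrc15 and with Dpt alone. In library 2 they were at 1235 CPM against 982 and 1049 CPM, in library 3 at 726 against 733 and 764 CPM. In library 4 they were at 625 against 383 and 575 CPM. Their fibroblast markers were at 13987 CPM in the pool, against 41304 and 27204 CPM. The part of other cells in these values was not tested.

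Many cells held several ligands. At 1000 UMIs per cell, 63.2% of neutrophils (62.2 to 64.3) held UMIs of at least 2 of the 4 ligands, with 24.3%, 71.7%, 68.6% and 54.3% in libraries 1 to 4. Fibroblasts reached 60.5%, with 21.3%, 64.7%, 63.6% and 56.6%. Library 1 was the lowest in both classes. Macrophages were at 42.4%, pericytes or smooth muscle cells at 37.7%, monocytes at 35.1%, tumour cells at 9.71% and T cells at 8.47%. Within libraries, tumour cells were at 9.31% (8.42 to 10.3) against 2.74% (1.37 to 4.84) of T cells in library 1, and at 15.1% (11.2 to 19.8) against 9.76% (4.31 to 18.3) in library 2. All 4 ligands were held by 3.15% of fibroblasts and 1.06% of neutrophils.

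**Figure D5:**
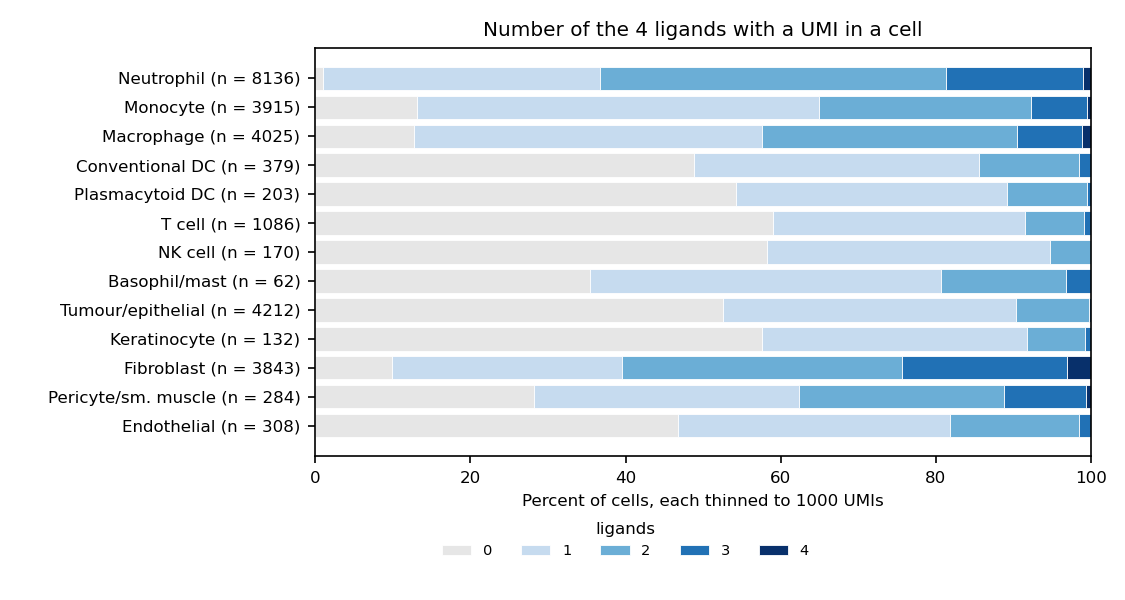
Percent of cells of each class (horizontal axis), after thinning to 1000 UMIs, that held UMIs of 0, 1, 2, 3 or 4 of the 4 ligands. Neutrophils (1.08%) were nearly never without a ligand, and 63.2% of them held at least 2.

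The rest of the CXCR2 pathway, a list of 43 genes, gave 20 that peaked in neutrophils. Of the 42 that reached 10 CPM in some class, 19 (45.2%) did, against 8.60% of all 12239 such genes. Of the 39 that could be compared, 19 were called higher in neutrophils than in the other immune classes and 2 lower, where 10.3% of all genes were called higher and 45.6% lower, and the median log2 ratio was 1.11 against -0.89 over all genes tested. Csf3r, among these 19, was itself a marker of the neutrophil gate. The list was also chosen with earlier results of these data known and includes receptors picked as those of neutrophils. Its excess over all genes was therefore partly built in and is a description only. Of the 9 inducers and receptors compared, 6 were called higher, among them Il1b (log2 ratio 3.61) and Tnf (2.49), which induce the ligands. Il1b was at 10715, 16101, 14819.9 and 11893 CPM in the neutrophils of libraries 1 to 4, the highest class in each.

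Regulators of the chemokine messages were mixed. Of 8 genes of transcript control, 4 were called higher in neutrophils, which were Nfkbia (2.38), Nfkbiz (2.48), Tnfaip3 (2.30) and Zc3h12a (1.51), and none lower. Zfp36 (-0.22, 0.20, 1.44 and 1.59 in libraries 1 to 4), Nfkb1 (-1.06, 0.32, -0.79 and -0.83), Rela and Relb differed in direction between libraries and were not called. Nfkbiz was at 489.6, 2088, 1808 and 1359 CPM in neutrophils of libraries 1 to 4. Of 5 other attractant receptors, 4 were called higher, with log2 ratios of 4.63 for the formyl peptide receptor Fpr1, 3.37 for Fpr2, 2.39 for Ccr1 and 1.69 for the complement receptor C5ar1. Of 6 genes listed for the signal of the receptor inside the cell, its regulators Grk2 and Arrb2 among them, none was called. Cxcr1, the sister receptor, was called higher (4.24) at only 26.0 CPM in neutrophils.

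The platelet chemokines that lie between Cxcl5 and Cxcl3 followed other cells. Pf4 and Ppbp were the 2 genes called lower in neutrophils, with log2 ratios of -3.46 and -3.37. Pf4 was highest in macrophages in each library, at 453, 11151, 20499 and 16283 CPM. Il17a, the inducer made by lymphocytes, was highest in T cells in each library, at 134, 22.7, 79.4 and 65.1 CPM. Il1r1, the receptor through which interleukin 1 acts on stroma, was highest in fibroblasts in each library, at 112, 198, 178 and 221 CPM, the class that led in Cxcl1. Csf3, the growth factor for neutrophils, was highest in tumour cells of the libraries that held them, at 331 CPM in library 1 and 419.7 CPM in library 2.

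Between tumour cells and fibroblasts, 27 genes of the list could be compared, of which 2 were called higher in tumour cells (Csf3 with a log2 ratio of 2.87 and Il1a with 1.78) and 7 lower, Il1r1 among them (-3.79). Of all genes 10.3% were called higher and 18.1% lower, so these counts were near the background. Their median was -0.77 against -0.07 over all genes tested. With Retnlg none of 38 was called, and the median was -0.07 against -0.14.

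Over the 31 sums of a class in a library with at least 50 cells, the profile of each gene was set beside those of 12936 genes as Pearson correlations of log2 levels. These points share libraries and differ in depth, so the correlations describe likeness of level only. Cxcl5 was most like Ptx3 (0.93), Rarres2 (0.92), Gfpt2 (0.91), Timp1 (0.90) and Dcn (0.89). Cxcl2 was most like Rnf149, Cd300lf, Fpr2, Dmxl2 and Ccr1 (0.96 to 0.97), and Cxcr2 like 5430425K12Rik, Mirt2, Gm39321, Mrgpra2b and Gm568 (0.98 to 0.99). Cxcl3 was most like Clec4e (0.90), Rybp, Rabgef1, Tlr4 and Braf (0.87). Cxcl1 had no partner so close, and its nearest were Plau and Srxn1 at 0.81. Within the set, Cxcl2 and Cxcl3 were alike (0.85), as were Cxcl2 and Cxcr2 (0.80) and Cxcl1 and Cxcl5 (0.68), whereas Cxcl1 and Cxcl2 (0.20) and Cxcl2 and Cxcl5 (-0.06) were not.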

How the data were processed

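The authors deposited 1 matrix of whole-number UMI counts, not normalised, from droplet-based (10x Genomics) libraries, made with Cell Ranger, which calls cells and counts UMIs. The submitters' processing notes name version 2.1.1 and mm10, the methods version 3.0.2 and the matrix header version 6.1.2. The study's text gives 15603 cells after its filter, against 33064 barcodes in the matrix and 32133 after the same limits here. The reason was not tested.

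Counts were summed over cells and scaled to CPM. Cells were gated by the mean of z-scored log levels, capped at 4, of each marker panel (at least 3 markers, a score of 0.3 and a lead of 0.2), a rule set after the data were seen. 1460 cells lay near these limits. Ratios used a pseudocount of 1 CPM. Shares used cells thinned to 1000 UMIs (seed 1). Alternatives were Leiden clusters (30 principal components, 20 neighbours, resolution 1.0, the 5 genes left out), at least 500 genes, at most 10% mitochondrial UMIs, removal of the highest 5% of Scrublet scores, thinning, other pseudocounts and filters, and each library left out. Doublets were otherwise kept. No test was run, so no p-value is given. The named genes were the 5 genes, the pathway list and the 5 genes most like each. The genes and lists were chosen with earlier results of these data known. Of 799 stretches of 50 bases in the last 500 bases of Cxcl2 transcripts, 61 also occurred somewhere in a transcript of another of the 5 genes, so a few reads of Cxcl2 may be uncertain. The other 4 genes had none. The steps were tested on simulated data. Python 3.11.15, numpy 2.4.6, scipy 1.17.1, pandas 2.3.3 and scanpy 1.11.5 were used.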

Additional observations from a re-analysis of the deposited data

How the results depend on the processing

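The class with the highest level was the same for the 5 genes under each alternative, except that pericytes or smooth muscle cells led for Cxcl5 with clusters in place of the gate, and fibroblasts for Cxcl1 without library 3 or 4. Shares moved more. The share of a gene's UMIs in its leading class, given for Cxcl1 and Cxcl5 in fibroblasts and then Cxcl2, Cxcl3 and Cxcr2 in neutrophils, was 56.6%, 86.1%, 58.0%, 56.6% and 85.7% with clusters, 53.6%, 83.8%, 48.4%, 43.5% and 81.7% with a stricter gate chosen after seeing the data, 55.9%, 86.0%, 53.3%, 47.9% and 89.1% without the highest 5% of doublet scores, and 24.5%, 67.0%, 75.1%, 70.02% and 94.0% with each cell thinned. With at least 500 genes it was 50.7% for Cxcl2 and 45.9% for Cxcl3. Leaving out each library gave 49.2% to 66.5% for Cxcl1, 81.0% to 90.4% for Cxcl5, 42.6% to 58.1% for Cxcl2, 39.5% to 53.1% for Cxcl3 and 82.1% to 85.9% for Cxcr2. The share of cells with a UMI, in the same order, was 46.6%, 26.6%, 97.5%, 33.0% and 15.2% at a minimum of 2 UMIs. Without thinning it was 94.3% for Cxcl1, 80.4% for Cxcl5, 49.6% for Cxcl3 and 56.5% for Cxcr2. Leaving out each library gave 64.5% to 75.5%, 39.8% to 50.3%, 98.1% to 99.2%, 36.1% to 46.9% and 34.4% to 44.6%. At least 2 ligands were held by 72.1% of neutrophils and 95.1% of fibroblasts without thinning, and by 58.7% to 66.3% and 57.7% to 62.1% as each library was left out. The cause of these shifts was not tested.

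The calls against other immune classes stayed at 3 genes except without library 1, where Cxcl1 joined them. Those in tumour cells stayed at 4 except with thinning, where Cxcl3 (-4.54) was lost, and without the filter on low levels, where Cxcr2 was added. No gene of the set was called with Retnlg under any alternative. Over all genes, a pseudocount of 10 CPM gave 2336 lower calls in neutrophils in place of 3761, and 610 higher calls in tumour cells in place of 944, and no filter gave 1467 and 2705 calls there in place of 944 and 1654. The few calls with Retnlg varied from 2 higher and 0 lower to 18 and 23 with a library left out, and 10 and 36 without the filter. No paired analysis was possible because no source ties the suffixes to samples, so the replicate numbers of the labels belong to no library. A test of cell classes paired by library was not run, and the values of each library are given in its place. Depth, the mix of cells and treatment cannot be told apart between libraries. Library 1 holds few fibroblasts and monocytes, and libraries 3 and 4 hold almost no tumour cells. Class names were rebuilt here.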

Other observations

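Genes with which vessels catch neutrophils were found in the 312 endothelial cells. Selp, which encodes P-selectin, was at 83.4 CPM in library 1 and 466.6 CPM in library 2, the libraries with at least 50 endothelial cells, and was the highest there of all classes. Ackr1, an atypical receptor that presents chemokines on venules, was at 16.3 and 65.7 CPM in the same libraries, against 0 and 0.7 CPM in neutrophils. Icam1, a ligand of neutrophil integrins, was highest in endothelial cells in library 1 (544.8 CPM) but in neutrophils in libraries 2 and 3 (521 and 779 CPM).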
